A study of Mus musculus with 2 samples.

Results

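The 9 genes of the Ly6 and uPAR family described here stand among the 36528 gene rows (31049 with a symbol) of each count table. They are Ly6a, Ly6c1, Ly6d, Ly6e, Ly6k, Psca, Lypd3, Slurp1 and Cd59a. They were chosen as a list of family members with earlier results of these same data known, so their levels and ratios are a description and no test was made of them. Proteins of this family share the LU domain, a compact fold of finger-like loops held together by disulphide bonds. Most are tethered to the outer face of the plasma membrane by a glycosylphosphatidylinositol (GPI) anchor, and a few, such as Slurp1, are secreted. In skin the family is known from surface markers of keratinocytes and blood cells, from a shield against complement (Cd59a) and from secreted ligands of nicotinic acetylcholine receptors.

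Epidermal cells were taken at postnatal day 1 from mice of the C57BL/6 background. One library came from 11 pooled neonates with Rosa26-CreERT2, a tamoxifen-activated recombinase expressed from a broadly active locus, and the other from 9 pooled neonates with Bap1fl/fl and Rosa26-CreERT2. Bap1 encodes a nuclear deubiquitinase of histone H2A. Both cultures were kept in medium M254 with a growth supplement made for human melanocytes, and both received 4-hydroxytamoxifen (4-OHT) at 100 nM for 4 days followed by 3 days without it. About 6000 viable cells of each were loaded for droplet 3′ sequencing with unique molecular identifiers (UMIs).

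Levels below are CPM, the UMIs of a gene scaled to the total of the same cells. Each genotype had a single library, so no replicate spread could be measured, and each 95% interval covers counting error only. The pups behind each cell are not recorded, so differences between pups and differences between cells of 1 pup cannot be told apart, nor can genotype and library. RNA of Bap1 itself was higher in the library labelled knockout, at 19.6 CPM against 14.0 CPM in keratin-rich cells. A 3′ count outside the deleted part does not check the deletion, and the libraries are called by their labels throughout.

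The library labelled wild type held 77579465 UMIs in 1926 cells and the one labelled knockout 64954113 UMIs in 1760 cells, and 3 cell barcodes occurred in both. After filtering, 1912 and 1738 cells fell into 11 clusters. Clusters 0 to 6, which lacked enough markers of another class, were called keratin-rich. They held 1750 (91.5%) and 1597 cells (91.9%), with median depths of 39773 and 35676 UMIs. Cluster 3 was led by suprabasal keratinocyte markers (8 of 10, among them Krtdap, Sbsn, Ivl and Lor) and held 343 and 216 cells. Cluster 6 was led by cell cycle markers. Cluster 0 was mostly from the library labelled wild type (716 and 57 cells), and clusters 1 and 2 mostly from the one labelled knockout (37 and 624, 40 and 561 cells). The named classes were small: Schwann-like (59 and 36 cells), melanocyte-like (22 and 56) and myeloid-like (36 and 20), and 45 and 29 cells with both fibroblast and muscle markers stayed unnamed.

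Close copies limit what a 3′ count can say about Ly6a and its neighbours. The last 60 coding bases, stop codon included, are shown for Ly6a, for the 3 close copies whose last coding bases were read and for 2 more distant members, all from GENCODE transcripts on build GRCm38, 5′ to 3′ along the gene. Capitals mark the bases that differ from Ly6a at the same place.
Ly6a, chr15:74995262-74995321, minus strand: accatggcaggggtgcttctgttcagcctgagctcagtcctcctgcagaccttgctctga
Ly6c1, chr15:75045402-75045461, minus strand: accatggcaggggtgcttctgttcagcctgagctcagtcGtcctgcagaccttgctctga
Ly6c2, chr15:75108543-75108602, minus strand: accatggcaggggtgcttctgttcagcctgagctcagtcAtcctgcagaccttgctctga
Ly6i, chr15:74979914-74979973, minus strand: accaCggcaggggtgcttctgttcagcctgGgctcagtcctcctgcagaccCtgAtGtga
Ly6e, chr15:74958654-74958713, plus strand: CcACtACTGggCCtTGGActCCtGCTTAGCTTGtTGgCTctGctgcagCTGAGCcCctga
Ly6d, chr15:74762356-74762415, minus strand: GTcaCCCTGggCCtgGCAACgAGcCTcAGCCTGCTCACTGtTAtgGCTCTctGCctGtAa
Ly6c1 and Ly6c2 each differed from Ly6a at 1 of 60 bases and Ly6i at 5, whereas Ly6e differed at 37 and Ly6d at 42. Over the whole coding sequence Ly6a was 82.0% identical to Ly6c1, 81.7% to Ly6c2 and 86.4% to Ly6i. Over the last 300 transcript bases, where 3′ reads start, Ly6a was 80.1% identical to Ly6c1, 81.0% to Ly6c2 and 82.4% to Ly6i. The longest shared runs there were 36, 37 and 35 bases. Ly6e was 45.4% identical to Ly6a there, with no shared run above 8 bases. The counts of Ly6c1 and of the other copies are therefore uncertain where Ly6a is abundant, while Ly6e and Ly6a could be counted apart.

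RefSeq (GRCm38.p6) gave a promoter for 3 of the 9 members, with 4 start sites. The 250 bases before the start are shown for the 2 members outside the Ly6 gene cluster and for the upstream start of Ly6c1, whose ratios between the libraries were lower, inside 1.5-fold and higher in turn. The Cd59a and Ly6c1 windows run into the annotated genes, whose 5′ ends lie at 104095753 and 75048920. Capitals mark matches, on either strand, to the motifs spelled out after the sequences.
Cd59a, chr2:104095551-104095800, plus strand: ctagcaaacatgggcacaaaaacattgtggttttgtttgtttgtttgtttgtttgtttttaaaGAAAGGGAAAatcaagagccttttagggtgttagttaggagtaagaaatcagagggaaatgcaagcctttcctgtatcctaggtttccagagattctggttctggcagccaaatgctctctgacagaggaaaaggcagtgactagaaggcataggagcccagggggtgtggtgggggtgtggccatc
Lypd3, chr7:24636320-24636569, plus strand: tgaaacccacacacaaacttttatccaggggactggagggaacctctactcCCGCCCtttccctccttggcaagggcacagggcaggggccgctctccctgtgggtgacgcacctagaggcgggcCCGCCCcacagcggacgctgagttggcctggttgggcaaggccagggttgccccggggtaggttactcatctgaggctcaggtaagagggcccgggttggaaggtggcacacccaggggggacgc
Ly6c1, chr15:75048838-75049087, minus strand: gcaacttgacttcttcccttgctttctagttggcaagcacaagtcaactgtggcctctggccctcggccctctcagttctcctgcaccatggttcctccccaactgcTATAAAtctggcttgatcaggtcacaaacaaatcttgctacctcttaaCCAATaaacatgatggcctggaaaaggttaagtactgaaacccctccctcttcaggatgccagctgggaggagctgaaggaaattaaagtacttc
Cd59a held 1 match to the interferon-stimulated response element (GAAA, any 2 bases and GAAA again), which 2.98% of 32851 promoter windows of this length hold. Lypd3 held 2 matches to the GC box, GGGCGG, which 32.7% of windows hold. Ly6c1 held 1 match to the TATA box, TATAAA, as do 12.4% of windows, and 1 to the CCAAT box, as do 33.8%. A gamma-activated site (TTCNNNGAA, 7.02% of windows) and an AP-1 site (TGANTCA, 6.75%) were also searched and were not matched in these 3 windows. The motifs do not overlap in these windows, and a match is a run of letters, not a measured site.

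Between the libraries, 4 members were lower in the keratin-rich cells labelled knockout by at least 1.5-fold (Psca, Ly6d, Ly6k and Cd59a) and 2 were higher (Ly6a and Ly6c1). Lypd3 and Ly6e stayed inside 1.5-fold, and Slurp1, with 3 UMIs in all, was not counted. Of all 16750 genes with at least 20 UMIs in these cells, 17.5% were lower and 7.72% were higher by the same rule. The median log2 ratio of the 8 counted members was −0.51, beside −0.02 over all genes. The list is short, and it was chosen with such values in view.

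**Figure D1:**
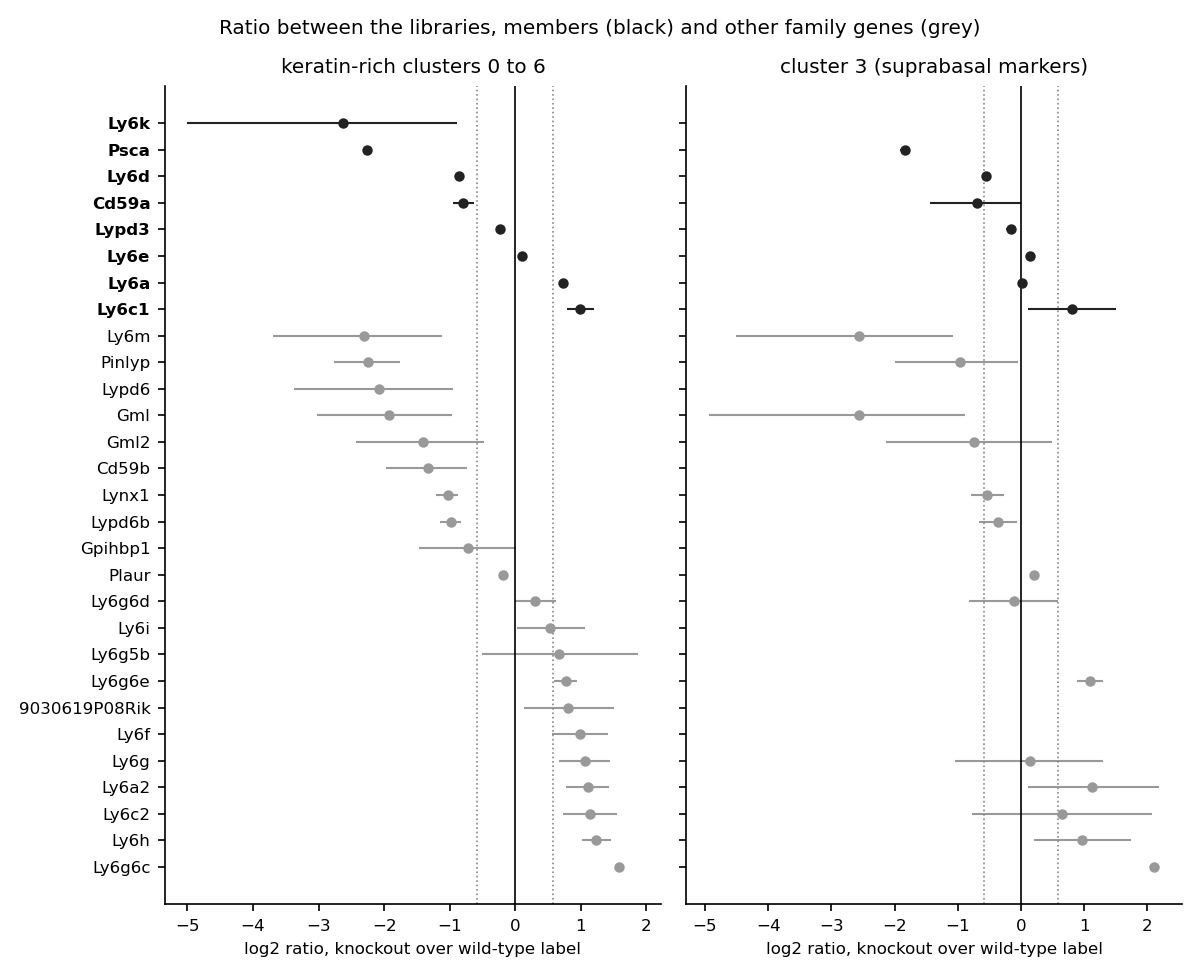
Log2 ratio of the summed level in the library labelled knockout over the library labelled wild type, for members (black) and other family genes (grey) with at least 20 UMIs over both libraries, in all keratin-rich clusters (left) and in cluster 3 (right). Bars are 95% intervals of counting error and dotted lines mark 1.5-fold; Psca lies at −2.26 and −1.84, Ly6a at 0.73 and 0.02, and Ly6g6c at 1.59 and 2.11.

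Ly6e and Ly6a were the members with the most UMIs in keratin-rich cells. Ly6e encodes a GPI-anchored protein known as a receptor for syncytin in the placenta and as a factor that hinders entry of some viruses. Its level was 919 CPM (68229 UMIs) under the wild-type label and 994 CPM (61835 UMIs) under the knockout label, a log2 ratio of 0.11 (0.10 to 0.13). It was present in all 7 keratin-rich clusters, between 729 CPM and 1114 CPM under the wild-type label and between 753 CPM and 1200 CPM under the other. Ly6a, known as Sca-1, is a GPI-anchored marker of blood stem cells in mice that upper hair follicle keratinocytes also carry. Its level was 494 CPM (36683 UMIs) and 817 CPM (50837 UMIs), a log2 ratio of 0.73 (0.71 to 0.75). In all 7 keratin-rich clusters Ly6a had more CPM under the knockout label, with log2 ratios of 0.02 (cluster 3) to 1.55 (cluster 4). The interval of cluster 3 (−0.04 to 0.08) and that of cluster 6 (−0.06 to 0.28) reached 0. When all family genes were left out of the clustering, the suprabasal cluster had the opposite direction, with Ly6a at 492 CPM and 404 CPM (log2 −0.28, −0.35 to −0.21). Without cluster 2 the ratio over keratin-rich cells was 0.43, below the 1.5-fold line.

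**Figure D2:**
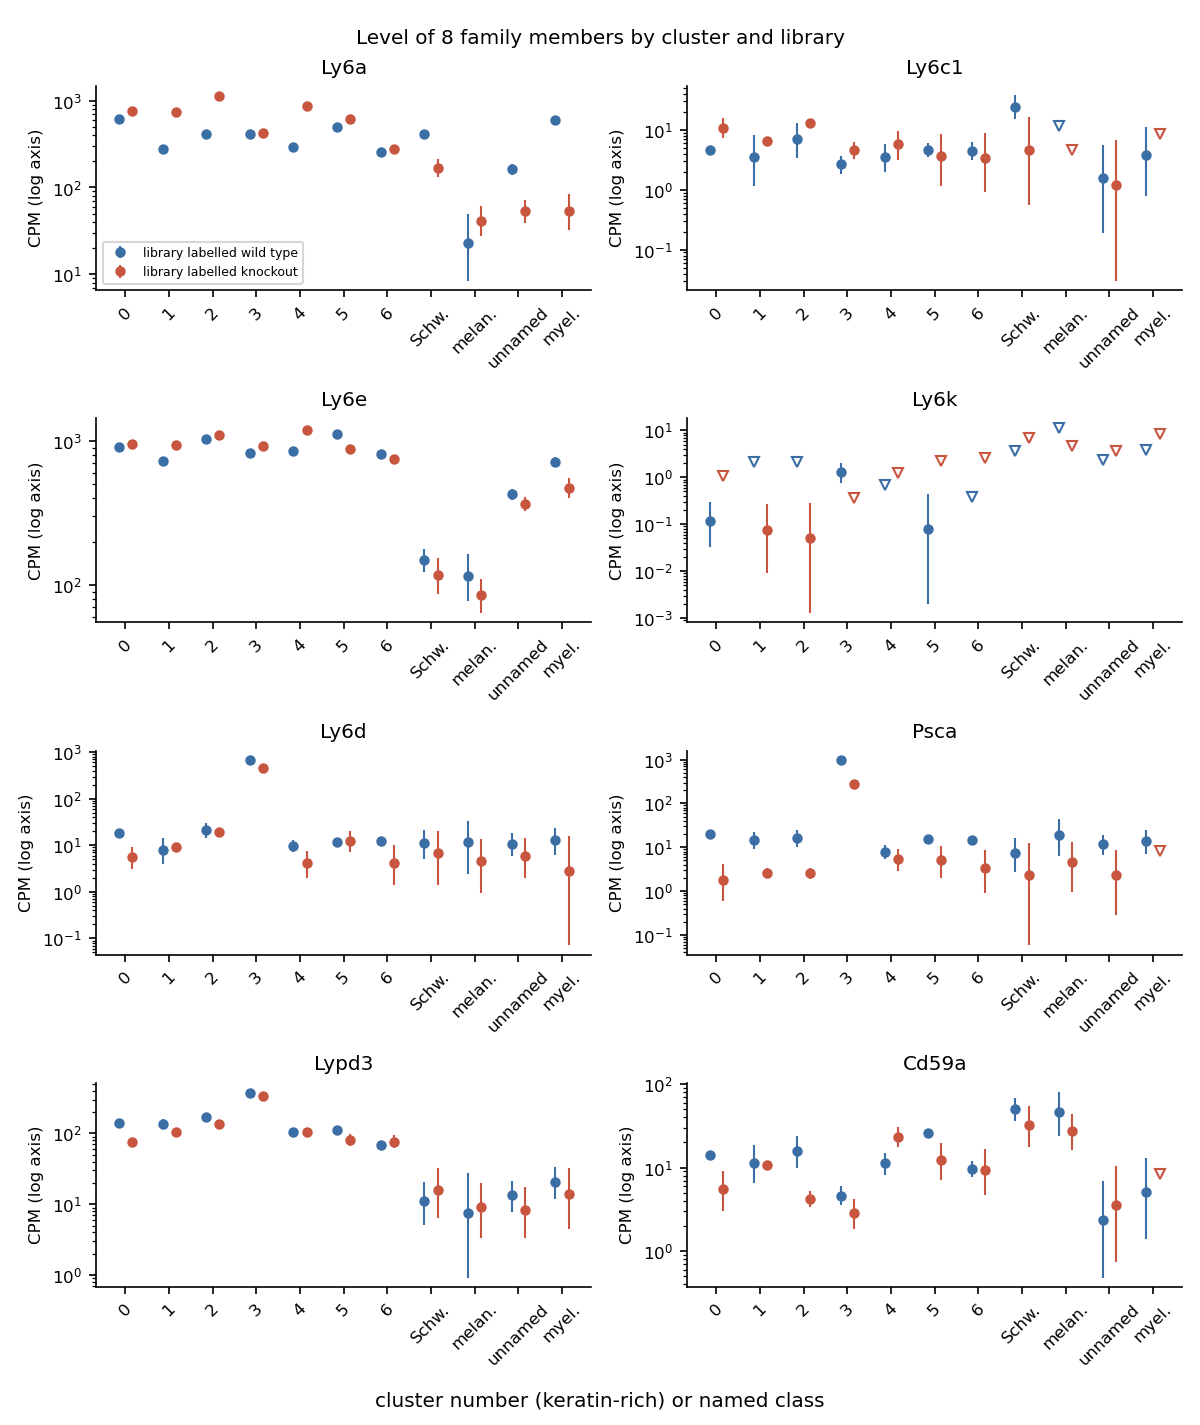
Level of 8 members in CPM on log axes, for each keratin-rich cluster (0 to 6) and for the Schwann-like, melanocyte-like, unnamed and myeloid-like cells, in the library labelled wild type (blue) and labelled knockout (red). Bars are 95% Poisson intervals and open triangles stand at the level that 3 UMIs would give where no UMI was found; Ly6d and Psca stand out in cluster 3 (672 and 973 CPM under the wild-type label), and Cd59a is at its highest in Schwann-like and melanocyte-like cells.

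Within the keratin-rich clusters both genes ran over a wide range of levels from cell to cell. Ly6e had a median of 507 CPM per cell in the library labelled wild type, with quartiles at 292 CPM and 1426 CPM. In the library labelled knockout the median was 641 CPM and the quartiles 279 CPM and 1583 CPM. Ly6a had medians of 78.2 CPM and 107 CPM, while the top 10% of cells began at 1519 CPM and 2460 CPM. Most cells thus held little Ly6a, and a minority held most of it: the top 10% of cells carried 66.1% and 60.1% of its UMIs.

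The cells rich in Ly6a were also those rich in Ly6e. Cells were divided at 800 CPM of Ly6e and 400 CPM of Ly6a, levels chosen after the values were seen, which mark ranges and no cell type. In the library labelled wild type 640 of 1750 cells (36.6%) had at least 800 CPM of Ly6e, and in the library labelled knockout 727 of 1597 (45.5%). Of these, 402 (62.8%) and 531 (73.0%) also passed 400 CPM of Ly6a. Among cells under 800 CPM of Ly6e only 36 of 1110 (3.24%) and 42 of 870 (4.83%) did. The reverse combination, high Ly6e with little Ly6a, occurred in 238 and 196 cells. Within 1.25-fold of the Ly6e level lay 175 cells (10.0%) and 163 cells (10.2%).

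The correlation of log levels between Ly6a and Ly6e over keratin-rich cells was 0.74 in both libraries (1750 and 1597 cells). Among 11900 and 11257 genes found in at least 100 of those cells, Ly6e ranked first for likeness to Ly6a and Ly6a first for Ly6e, in both libraries. The nearest genes outside the family reached 0.21 (Tmem176b) and 0.24 (Col18a1) with Ly6a, and 0.28 and 0.32 (Cpe in both libraries) with Ly6e. Inside single clusters it ran from 0.68 to 0.80 under the wild-type label and from 0.64 to 0.80 under the other. With each cell thinned to 5000 UMIs the correlation over keratin-rich cells was 0.59 and 0.62, and inside single clusters it ran from 0.36 (cluster 6) to 0.76 (cluster 2) and from 0.37 (cluster 6) to 0.69 (cluster 2). Cells of 1 library share that library and its pool of pups, and no p was computed.

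**Figure D3:**
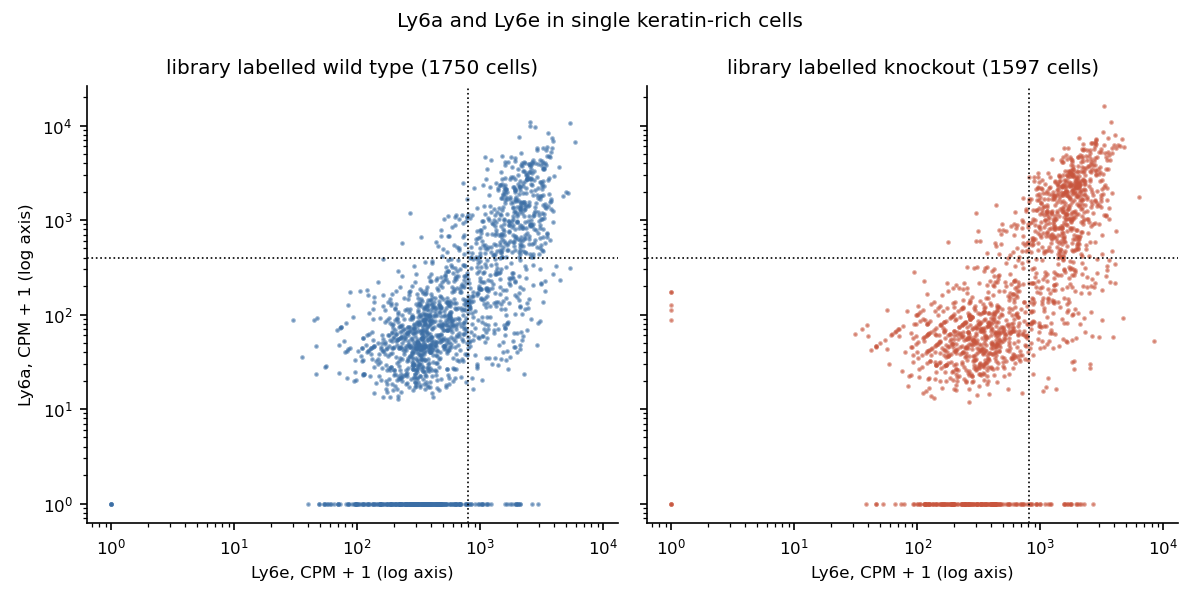
Ly6a against Ly6e in every keratin-rich cell, as CPM + 1 on log axes, in the library labelled wild type (left, 1750 cells) and labelled knockout (right, 1597 cells); dotted lines stand at 400 CPM of Ly6a and 800 CPM of Ly6e. Both libraries show a lower and an upper cloud, with 402 and 531 cells above both lines and 36 and 42 above the Ly6a line alone, and cells without a UMI lie on the axis value of 1.

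Depth and RNA quality differed little between the ranges. Cells at or above 800 CPM of Ly6e had median depths of 38055 and 34840 UMIs and median mitochondrial shares of 1.29% and 1.12%. Those below had 41089 and 36572 UMIs and shares of 1.27% and 1.14%. The upper range was found in every keratin-rich cluster, in 27.0% (cluster 1) to 48.1% (cluster 5) of cells under the wild-type label and 26.3% (cluster 6, 19 cells) to 59.8% (cluster 4) under the knockout label. In the suprabasal cluster 3 it took 102 of 343 cells (29.7%) and 86 of 216 (39.8%).

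Ly6a was then compared between the libraries inside each range. In cells with at least 800 CPM of Ly6e, Ly6a was at 1209 CPM under the wild-type label and 1721 CPM under the knockout label, a log2 ratio of 0.51. In cells below that level it was at 93.8 CPM and 97.2 CPM (log2 0.05, −0.01 to 0.12). Summed over keratin-rich cells, the library labelled knockout thus had both a larger share of cells in the upper range and a higher level of Ly6a inside it. The single clusters did not all share this. In cluster 3 Ly6a was lower under the knockout label in both ranges, at 1232 CPM and 979 CPM in the upper and at 80.7 CPM and 50.4 CPM in the lower. The share of cells in the upper range was not larger under the knockout label in cluster 2 (47.5% and 47.1%), cluster 5 (48.1% and 43.5%) and cluster 6 (33.1% and 26.3%), each of which had few cells in 1 of the libraries. Over keratin-rich cells Ly6d had log2 ratios of −1.34 in the upper range and −0.02 (−0.13 to 0.08) in the lower. Those of Ly6c1 were 1.25 and −0.10 (−0.49 to 0.28). Psca (−5.37 and −1.30) and Cd59a (−0.68 and −0.91) were lower in both ranges, and Ly6k had few UMIs.

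Ly6c1, a GPI-anchored antigen of endothelial cells and some leukocytes, was at 4.23 CPM (314 UMIs) and 8.42 CPM (524 UMIs) in keratin-rich cells, a log2 ratio of 0.99 (0.79 to 1.20). Thinned to 5000 UMIs per cell the ratio was 0.49. Its UMIs followed Ly6a: in cells with at least 400 CPM of Ly6a it was at 8.76 CPM and 19.1 CPM, and in cells below at 2.69 CPM and 2.23 CPM. Other neighbours did the same, among them Ly6f and Ly6g, which are 80.8% and 79.9% identical to Ly6a over the last 300 bases, and Ly6a2, which is 47.3% identical there with a longest shared run of 26 bases. The Ly6a2 transcript compared had no annotated coding region, so its last bases may not be the 3′ end of the RNA counted. Ly6a2 was at 4.99 CPM and 8.60 CPM in Ly6a-rich cells against 0.433 CPM and 0.431 CPM in the rest, Ly6f at 3.45 CPM and 4.92 CPM against 0.180 CPM and 0.330 CPM, and Ly6g at 3.98 CPM and 6.32 CPM against 0.271 CPM and 0.330 CPM. Summed over keratin-rich cells, these genes gave a small share of the Ly6a count, for example 0.856% and 1.03% for Ly6c1 and 0.245% and 0.309% for Ly6g. Ly6h, farther along the gene cluster, was at 2.65 CPM and 9.30 CPM in Ly6a-rich cells and at 3.66 CPM and 7.35 CPM in the rest. How many reads of these genes came from Ly6a transcripts was not tested.

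Psca and Ly6d belonged to the suprabasal cluster. Psca, prostate stem cell antigen, is a GPI-anchored protein of stratified and other lining epithelia. It had 12842 of its 13911 keratin-rich UMIs in cluster 3 under the wild-type label and 2284 of 2432 under the knockout label, at 973 CPM and 271 CPM. The log2 ratio in cluster 3 was −1.84 (−1.91 to −1.78). Ly6d, a GPI-anchored antigen of keratinocytes also used as a marker of early B cells, had 8865 of 9819 UMIs and 3848 of 4528 UMIs there, at 672 CPM and 457 CPM (log2 −0.56, −0.61 to −0.50). Cluster 3 is defined in part by these genes, Psca being among its 10 leading genes. When all family genes were left out of the clustering, a choice added after seeing the data, the suprabasal cluster (256 and 173 cells) held Psca at 1302 CPM and 345 CPM and Ly6d at 809 CPM and 544 CPM.

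Outside cluster 3 the summed level of Psca was close to that of the 3 named classes. In the other keratin-rich clusters Psca was at 7.93 CPM to 20.2 CPM under the wild-type label and 1.82 CPM to 5.32 CPM under the knockout label. In melanocyte-like, Schwann-like and myeloid-like cells it was at 7.34 CPM to 19.1 CPM and at 0 to 4.62 CPM. The shares of cells with a UMI tell the same: after thinning to 5000 UMIs, 8.33% of myeloid-like and 9.09% of melanocyte-like cells under the wild-type label had a UMI of Psca, beside 27.4% (22.8% to 32.5%) of cluster 3. Unthinned, Psca was found in 56.3% and 28.7% of cluster 3 cells (median depths 35032 and 36098 UMIs) and in 9 of 36 myeloid-like cells under the wild-type label (median depth 19443 UMIs). In the other keratin-rich clusters the unthinned share was 14.6% (cluster 4) to 51.8% (cluster 6) under the wild-type label. Under the knockout label it was 8.02% (cluster 2) to 30.4% (cluster 5, 23 cells). Whether these low summed levels of Psca are background was not tested. Single cells stood above these levels. Of the 49 keratin-rich cells labelled wild type with at least 1000 CPM of Psca, 46 were in cluster 3 and 3 in other clusters. In the 3 named classes 0 cells reached 1000 CPM. Ly6d outside cluster 3 reached 21.3 CPM and 19.7 CPM (cluster 2 in both libraries), beside 11.0 CPM to 12.8 CPM and 2.80 CPM to 6.87 CPM in the 3 named classes.

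Few cells held high levels of these genes. Of the 343 cluster 3 cells labelled wild type 46 (13.4%) held at least 1000 CPM of Psca, and of the 216 labelled knockout 10 (4.63%). For Ly6d the numbers were 44 (12.8%) and 27 (12.5%). One cell labelled wild type held 3530 UMIs of Psca, 25.4% of the keratin-rich sum. Over keratin-rich cells the log2 ratio of Psca was −2.26, and −2.12 once the richest cell of either library was left out. Without cluster 3 it was −2.67. The overall ratio of Ly6d was −0.86 and changed with the clusters summed: it was −0.17 without cluster 1, −0.47 without cluster 2, −0.31 without cluster 3 and −0.56 with equal weight for each cluster.

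**Figure D4:**
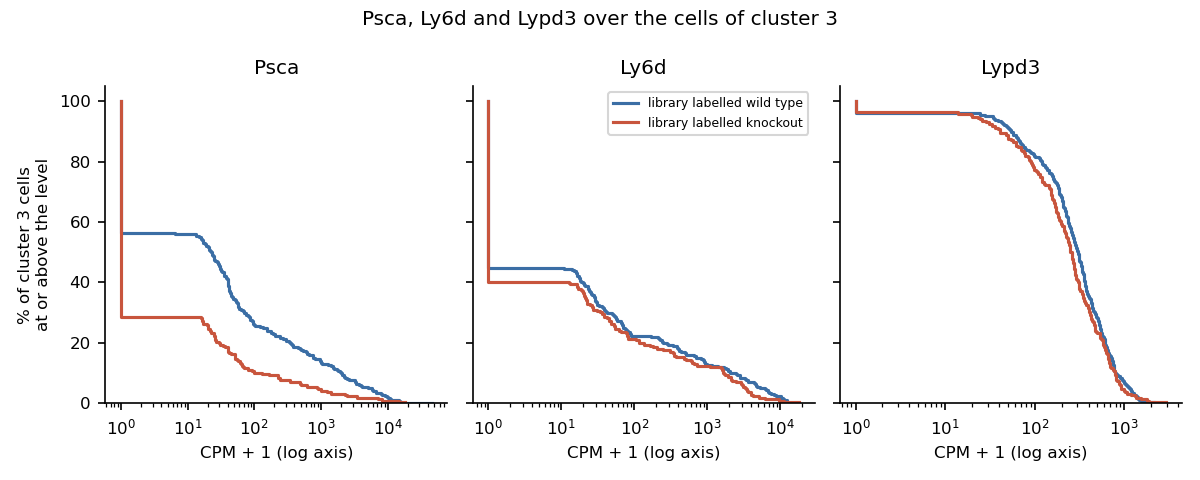
Share of cluster 3 cells at or above a given level (CPM + 1, log axis) of Psca, Ly6d and Lypd3, in the library labelled wild type (blue, 343 cells) and labelled knockout (red, 216 cells). The Psca curves part over the whole range (56.3% and 28.7% of cells with a UMI), while those of Ly6d (44.9% and 40.3%) and Lypd3 (96.2% and 96.3%) lie close together. A gap in the share with a UMI of Psca was also seen outside cluster 3, as in cluster 0 (41.1% and 8.77%), and was small in cluster 4 (14.6% and 11.3%).

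The cells with Psca and those with Ly6d fell differently over the Ly6e ranges. In cluster 3 under the wild-type label, Ly6d was at 1977 CPM in the 102 cells with at least 800 CPM of Ly6e and at 138 CPM in the 241 cells below. Under the knockout label the values were 859.8 CPM (86 cells) and 189 CPM (130 cells), so Ly6d was concentrated in the upper range in both libraries. Without the single top cell of each range they became 1755 CPM and 101 CPM, then 689 CPM and 71.6 CPM. Psca under the wild-type label was at 1555 CPM in the upper range and 735 CPM in the lower, or 647 CPM and 654 CPM without the top cell of each. Under the knockout label it was at 23.8 CPM and 436 CPM, or 10.6 CPM and 354 CPM without them. In that library 0 of 86 upper-range cells and 10 of 130 lower-range cells held at least 1000 CPM of Psca, against 12 of 102 and 34 of 241 under the wild-type label.

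Lypd3 (C4.4A) is a GPI-anchored uPAR relative of suprabasal squamous epithelium that binds laminins and integrins. It was found throughout the keratin-rich clusters, at 168 CPM (12454 UMIs) and 143 CPM (8915 UMIs), a log2 ratio of −0.23 (−0.27 to −0.19). Cluster 3 had the highest level, 373 CPM and 333 CPM, and the cycling cluster 6 had 67.8 CPM and 76.6 CPM. In the Schwann-like, melanocyte-like and myeloid-like cells the level was 7.64 CPM to 20.5 CPM in both libraries. Lypd3 was spread evenly compared with Psca, its top 1% of cells carrying 8.46% and 9.98% of the UMIs against 68.8% and 89.8% for Psca. The gene model Gm26550 overlaps Lypd3.

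Ly6k, known for its role in sperm and in tumours, and Slurp1, a secreted ligand of nicotinic receptors whose human counterpart is mutated in a palmoplantar skin disease, were barely found. Ly6k had 22 UMIs under the wild-type label and 3 under the knockout label in keratin-rich cells, and 12 of the 22 lay in 1 cell of cluster 3. Its log2 ratio was −2.62 (−5.00 to −0.88). It was 0.13 when cells were thinned to 5000 UMIs, where only 1 and 2 cells kept a UMI. Slurp1 had 1 UMI and 2 UMIs, all in cluster 3. In the remaining cell classes no UMI of either gene was found; in the 36 myeloid-like cells labelled wild type, for example, that allows a share of cells with a UMI of up to 8.33%.

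Cd59a, a GPI-anchored inhibitor of the membrane attack complex of complement, had another distribution. Its level was 13.7 CPM (1014 UMIs) and 7.89 CPM (491 UMIs) in keratin-rich cells, a log2 ratio of −0.79 (−0.95 to −0.63). The clusters disagreed: the ratio was −1.88 in cluster 2 (−2.58 to −1.14) and 1.06 in cluster 4 (0.48 to 1.64), and over all clusters weighted equally it was −0.43. In cluster 4, 1 cell labelled knockout held 15 of the 57 UMIs, and the shares of cells with a UMI were 17.8% and 18.6%. In the suprabasal cluster 3 Cd59a was low, at 4.62 CPM and 2.85 CPM. Schwann-like cells (50.2 CPM and 32.1 CPM) and melanocyte-like cells (45.8 CPM and 27.7 CPM) had the highest levels in both libraries. Their ratios, −0.65 and −0.73, had intervals that reached 0.

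In cluster 3 alone 7 members had at least 20 UMIs. Psca and Cd59a, 2 of them, were lower under the knockout label by at least 1.5-fold, and 1 was higher (Ly6c1). Of 12845 genes counted there, 14.3% were lower and 6.61% were higher by that rule, and the members' median log2 ratio was −0.16, beside −0.03 over all genes. Cd59a had 61 and 24 UMIs there and Ly6c1 35 and 39, and their intervals were wide. With the family left out of the clustering, Ly6c1 in the suprabasal cluster was at 2.95 CPM and 3.48 CPM (log2 0.24, −0.62 to 1.08), inside the 1.5-fold line.

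In myeloid-like, Schwann-like and unnamed cells Ly6a had the direction opposite to that in the keratin-rich cells, and in melanocyte-like cells the same. In myeloid-like cells Ly6a was at 603 CPM (472 UMIs, 36 cells) under the wild-type label and 53.3 CPM (19 UMIs, 20 cells) under the knockout label, a log2 ratio of −3.50 (−4.25 to −2.84). In all, 7 of the 36 cells and 0 of the 20 held at least 1000 CPM, and 1 cell carried 23.5% of the first sum. Ly6e was at 715 CPM and 474 CPM in these cells, Ly6c2, a marker of inflammatory monocytes, at 102 CPM (80 UMIs) and 8.41 CPM (3 UMIs), and Ly6i at 63.9 CPM (50 UMIs) and 2.80 CPM (1 UMI). Keratin-rich cells labelled wild type gave 77 UMIs of Ly6c2 and 59 of Ly6i beside their 36683 of Ly6a. In Schwann-like cells Ly6a was at 411 CPM and 169 CPM (log2 −1.28, −1.66 to −0.91) and Ly6c1 at 24.5 CPM (20 UMIs) and 4.58 CPM (2 UMIs). Ly6a in the 45 and 29 unnamed cells was at 162 CPM and 53.8 CPM. In melanocyte-like cells it was at 22.9 CPM and 41.5 CPM, the lowest of the classes, with an interval of the log2 ratio from −0.45 to 2.42. Fewer cells of a kind inside a class and less RNA per cell cannot be told apart in these sums.

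Of the 9 members 7 lie on chromosome 15 in 1 gene cluster that runs from Psca to Ly6h, chr15:74714839-75569470 on GRCm38.p6, a span of 855 kb with 33 annotated genes, 22 of them on the list of family genes used here. Lypd3 lies on chromosome 7 (24636570 to 24641118) near Plaur, and Cd59a on chromosome 2 (104095753 to 104115410). Along chromosome 15 the ratios fell into a lower and a higher stretch. The 7 listed family genes counted from Psca to Ly6m (Psca, Lynx1, Ly6d, Ly6k, Gml, Gml2 and Ly6m) all had log2 ratios of −2.62 to −0.86 in keratin-rich cells, at least 1.5-fold lower. Of the 10 counted from Ly6e to Ly6h, 0 were below 0 and 8 were at least 1.5-fold higher, with log2 ratios of 0.11 (Ly6e) to 1.24 (Ly6h). Over all genes counted in these cells 17.5% were lower and 7.72% higher by that rule. Gpihbp1, a family gene just past Ly6h (chr15:75596630-75598213), was again lower, with 49 and 25 UMIs and a log2 ratio of −0.72 (−1.47 to 0.01). Between Psca and Ly6m 2 other genes were counted, Them6 at −0.34 and Ly6g6g, which was also lower by 1.5-fold. The dividing point was chosen after the values were seen, and Ly6k was at 0.13 with thinned cells, where 1 and 2 cells kept a UMI. Cluster 3, which held most of the Psca, Ly6d and Ly6m UMIs in both libraries, made up 17.9% and 12.4% of the cells kept. Several of the higher genes are the close copies of Ly6a shown above, whose counts may include reads of Ly6a, which was not tested, and Gm28068 overlaps Ly6a and Ly6i. Among the lower genes Gml2 overlaps Gml, and also Cyp11b1. In cluster 3, Lynx1 was at −0.53, Gml at −2.57 (28 and 3 UMIs) and Ly6m at −2.56 (37 and 4 UMIs). Psca was at −1.84 there, and Ly6d, at −0.56, was inside 1.5-fold. Of the higher stretch, Ly6e (0.15) and Ly6a (0.02) were inside 1.5-fold in cluster 3, and Ly6c1 was at 0.80 (35 and 39 UMIs).

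**Figure D5:**
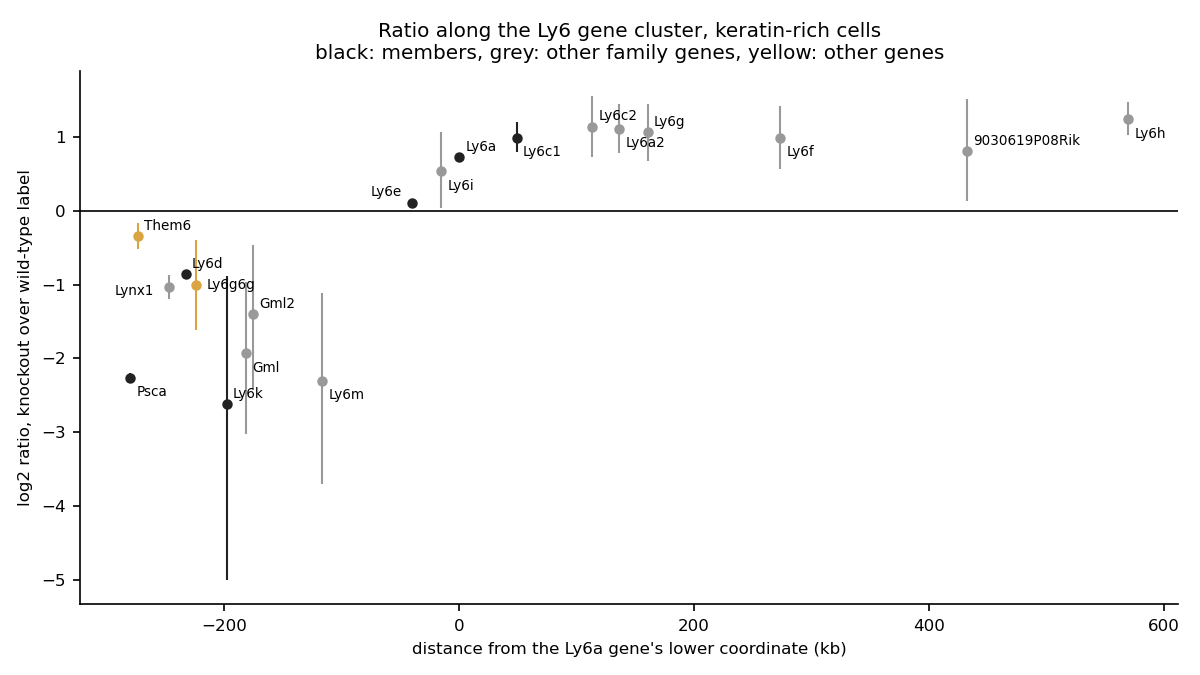
Log2 ratio of the library labelled knockout over the library labelled wild type in keratin-rich cells, against distance in kb from the lower coordinate of the Ly6a gene, for genes of the cluster with at least 20 UMIs; bars are 95% intervals of counting error. Points from Psca to Ly6m lie at −2.62 to −0.34 and points from Ly6e to Ly6h at 0.11 to 1.24.

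The tables hold 37 other genes of the family as listed here. In keratin-rich cells 21 were counted, and 9 were higher and 9 lower by 1.5-fold (median log2 ratio 0.31). Over all genes counted there 7.72% were higher and 17.5% lower, with a median of −0.02. The higher genes included Ly6c2, Ly6f, Ly6g and Ly6a2, whose counts may include reads of Ly6a, which was not tested. Ly6g6c, a family gene on chromosome 17, was higher, at 47.4 CPM (3524 UMIs) against 142 CPM (8861 UMIs). In cluster 3 it was at 192 CPM and 827 CPM, opposite to Psca in the same cells, and 14 of 343 against 52 of 216 cells held at least 1000 CPM. Ly6g6e, its neighbour, was at 6.34 CPM and 10.8 CPM, and Ly6h at 3.41 CPM and 8.07 CPM. Lower were Lypd6b (14.5 CPM and 7.36 CPM), Lynx1 (14.2 CPM and 6.92 CPM), which encodes a brake on nicotinic receptors, Pinlyp (3.06 CPM and 0.643 CPM) and Cd59b, the close relative of Cd59a (1.25 CPM and 0.498 CPM). Plaur, the urokinase receptor uPAR, was at 636 CPM and 558 CPM and inside the 1.5-fold line.

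The machinery and partners of the family were followed through lists of genes, whose counts stand beside the 17.5% of all genes that were lower and the 7.72% that were higher. Of 29 counted genes that build or attach the GPI anchor 4 were lower and 0 higher (median −0.12): Pgap4 (11.6 CPM and 3.60 CPM), Pigb, Piga and Pgap6. Of 27 other GPI-anchored surface proteins 3 were higher (Efna4, Efna3 and Gpc6) and 4 lower (Bst2, Gpc3, Art4 and Reck), with a median of −0.12. Of 15 partners of uPAR and Lypd3, the protease inhibitor Serpine2 (129 CPM and 200.2 CPM), Lamb1 (79.0 CPM and 128 CPM) and Itga5 were higher. Serpinb2 (318 CPM and 142 CPM), an inhibitor of urokinase, was lower, while the urokinase gene Plau was at 109 CPM and 98.5 CPM. Of 7 other complement regulators 2 were lower (Susd4 and Csmd1), and Clu was at 7446 CPM and 7487 CPM. Of 16 nicotinic receptor subunits 3 were counted, and Chrnb1 (23.7 CPM and 40.1 CPM) was higher.

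Interferon response and terminal differentiation genes also differed between the libraries. Of 41 counted interferon response genes 23 were lower and 0 higher under the knockout label (median −0.66), among them Bst2 (265 CPM and 171 CPM), Psmb8 (22.6 CPM and 2.91 CPM), Tap2 and Isg15 (18.4 CPM and 8.42 CPM). Ly6a and Ly6e, known to be induced by interferon in many cell types, were at log2 ratios of 0.73 and 0.11. Of 29 terminal differentiation genes 8 were lower and 4 higher (median −0.07). Lower were Sprr2d (297 CPM and 43.6 CPM), Cnfn (162 CPM and 43.1 CPM), Sprr2h (149 CPM and 35.4 CPM) and Grhl3, and higher were Sprr1a (276 CPM and 901 CPM), Krt6b, Krtdap and Klk5. The part of these programs in the members' ratios was not tested.

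Likeness across clusters was measured as Pearson's correlation of log2(CPM + 1) over 21 cluster-by-library sums among 12148 genes, which share libraries and depth. Psca was most like Sprr2d (0.96) and Cnfn (0.93), cornification genes, and then Sprr2h, Pdzk1ip1 and Sprr2i. Ly6d was most like Scgb1a1 (0.94), then 2300002M23Rik, Upk1b, Pglyrp4 and Cldn11. Lypd3 was most like Prss22, Nectin4, Trim29, Sdc1 and Clu, all at 0.96, and Ly6e like B4galnt1 (0.97), Myof, Ankrd13d, Thbs1 and Efnb2. Cd59a was most like Creb3l2 (0.89), Marcks, Lancl2, Cpsf7 and Rab2b. For Ly6a the nearest were Kmt2b, Fam117b and Nck2 (0.85), Rbm12b1 and Gal3st1 (0.84), and for Ly6c1 Pkn3 (0.84), Zbtb39, Zswim6, Slc35e3 and Nck2. Among the members themselves Ly6d and Psca were closest (0.91), followed by Ly6a with Ly6c1 (0.84), Ly6e with Lypd3 (0.81) and Ly6a with Ly6e (0.74), while Ly6a and Psca reached 0.16. By Spearman's correlation the order was another: Ly6a with Ly6e came first (0.84), then Ly6a with Ly6c1 (0.76), and Ly6d with Psca reached 0.73. Within thinned keratin-rich cells Ly6d and Psca were found together in 2.74% and 0.438% of cells, 3.12 and 2.80 times the share that independent detection would give. Both genes lie mostly in cluster 3, and within it they were found together in 11.1% and 3.24% of cells, 1.56 and 1.08 times that share.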

How the data were processed

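For each library the authors deposited whole-number counts of genes in cells, used here as UMI counts. The submitters' processing notes name mm10, Cell Ranger 2.1 and Seurat 2.0, but neither their roles, the cell calling nor the treatment of intronic or antisense reads is given in the sources used here. Members and gene lists were chosen with earlier results of these data known.

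Cells with at least 500 genes and at most 10% mitochondrial UMIs were kept (13 and 15 removed). Scrublet, run per library with an expected rate of 0.02, marked 1 and 7 cells, which were removed; it marked under 0.5% of cells, so doublets may remain. Cells of both libraries were clustered together (totals scaled to 10000, log transform, 2000 variable genes, 30 principal components, 15 neighbours, Leiden resolution 0.5). A cluster left the keratin-rich class with at least 3 markers of a non-keratinocyte set at 5-fold over the mean of the other clusters. The rest were called keratin-rich by default, with no keratin level required, so cell types are rebuilt names. UMIs were summed per cluster and library and scaled to CPM. Genes with at least 20 UMIs over both libraries were counted as higher or lower at 1.5-fold. Sums have exact Poisson, ratios conditional exact and shares Clopper-Pearson intervals, all at 95%. A count of 0 was given a floor of 3. Depth limits precision: cells held at least 10065 and 8776 UMIs. With 1 library per group no test was made. Of 36528 gene identifiers 31049 matched a RefSeq symbol (GRCm38.p6), and the rest held 2.67% of UMIs. Up to 4 genes per list and direction, those with the most UMIs, and the 5 genes most like each member were named; genes named beyond that were chosen after their values were seen. Values of 1 gene that this rule names are not reported here. The code was tested on simulated counts. Python 3.11.15, scanpy 1.11.5, numpy 2.4.6, scipy 1.17.1 and pandas 2.3.3 were used.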

Additional observations from a re-analysis of the deposited data

Results flagged for a closer look

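Ly6a moved in opposite directions in different cell classes: its log2 ratio (library labelled knockout over library labelled wild type) was −1.28 in Schwann-like cells and −3.50 in myeloid-like cells, against 0.73 in the keratin-rich clusters. Ly6c1 was at −2.42 in Schwann-like cells (20 and 2 UMIs) against 0.99, and Ly6e at −0.59 in myeloid-like cells against 0.11. With 1 library per genotype these differences between classes were not tested, and the Ly6c1 count is uncertain because of its close copies. The myeloid-like sums rest on 36 and 20 cells, and 1 cell held 23.5% of the Ly6a UMIs under the wild-type label.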

How the results depend on the processing

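No paired analysis was possible because each genotype had 1 library and no test was made. Beside the main counts of 4 members lower and 2 higher, 2 members were lower with equal weight for each cluster, with cells thinned to 5000 UMIs, without cluster 2 and without cluster 3, and 1 was higher when thinned and without cluster 2. The median log2 ratio of the members (−0.51) was −0.36 with equal weight for each cluster, −0.31 thinned, −0.24 without the top cell of each library, −0.23 with a minimum of 100 UMIs, −0.07 without cluster 1, −0.33 without cluster 2 and −0.12 without cluster 3. Thinned, without the top cells, with a minimum of 100 UMIs and without cluster 3, Ly6k fell below the UMI minimum and was left out. The median there equalled the ratio of Lypd3, so part of the change lay in which genes were counted. Ly6k was at 0.13 when thinned, where 1 cell labelled wild type and 2 labelled knockout kept a UMI, too few to give a direction. It was −0.55 without cluster 3. Cd59a was inside 1.5-fold with equal weight (−0.43), thinned (−0.56), without cluster 2 (−0.51) and without cluster 5 (−0.53). Over the 19 alternatives run for each member, Psca ranged from −2.99 to −1.53 and Ly6a from 0.43 to 1.07. Cell filters, doublets kept, Leiden resolutions 0.3 and 1, a common depth minimum, ratios centred on all genes, equal weight for each cell and clustering without the family (added after seeing the data) changed no member's side of the 1.5-fold line in the keratin-rich sum. Detection was also computed after thinning to 2000 UMIs, and likeness by Spearman's correlation, which left Sprr2d and Pdzk1ip1 for Psca and Creb3l2 for Cd59a among the nearest 5.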
